A study of Mus musculus with 6 samples.

Results

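The microRNAs described here are those named for their place in blood cells, apart from miR-155: every mouse probe named for miR-142, miR-144, miR-150, miR-223, miR-451 or the miR-146 pair, whatever the ending of the name. The names found 7 of 334 mouse microRNA probes: mmu-miR-142-5p, mmu-miR-144, mmu-miR-146, mmu-miR-146b, mmu-miR-150, mmu-miR-223 and mmu-miR-451. The rule went by name and used no measured value, but it was set with earlier results of these data known. All 7 passed the filter on dim probes that left 294 for testing, each at least through its Cy5 signal. The RNA came from embryoid bodies, aggregates of differentiating mouse embryonic stem cells, collected on day 7. The cells were of strain 129S7/SvEv Brd-Hprt b-m2 and carried human BRCA1 with the missense change R1699Q (RQ), with M1652I (MI) or in wild-type form (WT), with 2 arrays per group and 6 in all. All 3 groups share the mouse background and a human BRCA1. Which promoter drove it, and whether each line was 1 clone, is not stated in the labels. On every array Cy3 held the group's own RNA and Cy5 a reference labelled as wild-type embryoid body RNA, and no array had the dyes swapped.

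miR-144 and miR-451 are made from a shared precursor transcript that the transcription factor GATA1 switches on in red cell precursors, and miR-451 is cut to length by Argonaute 2 in place of Dicer. miR-150 belongs to mature lymphocytes and, in mouse B cells, restrains the transcription factor Myb. miR-223 belongs to granulocytes and other myeloid cells, miR-142 is made in nearly every blood lineage, and miR-146a and miR-146b are induced by NF-kB and dampen signalling through Traf6 and Irak1. Blood cells are among the types that embryoid bodies can form as they differentiate.

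The mature sequences of 6 of the 7 microRNAs were matched by name and by the probe's own letters to RefSeq entries of build GRCm38.p6. They are given 5′ to 3′ with the seed, bases 2 to 8, in capitals, because the seed shows which members share targets.
mmu-miR-144-3p: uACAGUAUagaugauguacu
mmu-miR-451a: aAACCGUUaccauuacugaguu
mmu-miR-223-3p: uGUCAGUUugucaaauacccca
mmu-miR-142a-5p: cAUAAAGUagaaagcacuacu
mmu-miR-146a-5p: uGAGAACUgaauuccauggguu
mmu-miR-146b-5p: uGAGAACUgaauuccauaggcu
The miR-146 pair was alone among these 6 in sharing a seed. Its 2 members have the same bases at all but 2 of 22 positions, G18A and U21C, counted from the 5′ end with the miR-146a base first. The probe named mmu-miR-146 was complementary to miR-146a-5p. The target parts of both probes of the pair are shown because little separates them. Capitals mark the bases that differ.
mmu-miR-146 probe, target part: aAccCatggaattcagttctca
mmu-miR-146b probe, target part: aGccTatggaattcagttctca
RNA of one could therefore also bind the other's probe, and the arrays do not show how much of either signal came from such binding.

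In GRCm38.p6 the Mir144 hairpin lies at chr11:78073005-78073070 and the Mir451a hairpin at chr11:78073170-78073241, both on the plus strand with 99 bases between them. The Mir142 hairpin is at chr11:87756864-87756927 (plus strand) and the Mir146 hairpin at chr11:43374397-43374461 (minus strand). Mir146b is at chr19:46342762-46342870 and Mir223 at chrX:96242817-96242926, both on the plus strand, and each overlaps a long noncoding RNA gene, Gm36493 for Mir146b and F630028O10Rik for Mir223. The probe for miR-142-5p begins 2 bases before the RefSeq start of the mature form and leaves out its last base, and the probe for miR-223 begins 1 base before and leaves out the last base.

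Some features of the arrays touch every value that follows. Between 241 and 255 of the 334 probes were well above background in Cy3 on an array, and 262 to 271 in Cy5. The median net Cy3 signal of the negative control spots was 54.0 and 61.0 scanner units on the RQ arrays, 37.8 and 42.5 on the MI arrays, and 34.3 and 28.2 on the WT arrays, so it was highest in RQ. All arrays came from 1 slide, where both WT arrays shared one row and the 4 mutant arrays the other, so slide row cannot be told apart from the difference between either mutant and WT. The Cy5 reference did not resemble the RNA of the WT arrays. Of 9 stem cell microRNA probes, 9 passed the background limit in Cy3 on each of the 6, with a median net signal between 4641 and 6800. In Cy5 between 2 and 5 of the 9 were, with a median between 13.5 and 27.7. The reason was not tested, and the Cy5 channel is called the reference below only as the labels name it.

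The blood cell microRNAs were all dimmer in the embryoid body RNA than in the reference, where each was clear. Not all were dim among the probes in Cy3. There mmu-miR-451 ranked between 59 and 84 from the brightest of the 334 mouse probes, while no other member ranked above 160. In Cy5 all 24 spots of each member, 4 on each of the 6 arrays, were well above background. In Cy3 the 24 spots passed for mmu-miR-451, mmu-miR-150 and mmu-miR-142-5p. For the others 12 passed for mmu-miR-223, 11 for mmu-miR-146b, 2 for mmu-miR-146 and 0 for mmu-miR-144. The count for mmu-miR-146b includes, on each of the 6 arrays, an outlier-marked spot that the averages leave out. On the MI and RQ arrays no other spot of that probe passed. Each member had a log2 ratio of Cy3 over Cy5 under -2 on each array, whereas the median tested probe stood between 0.06 and 0.20. Between 48 and 61 of the 294 tested probes were under -2 on an array. Among the unmarked spots of a member on 1 array, the coefficient of variation of net Cy3 was between 0.778% and 14.6% for mmu-miR-150 and between 4.14% and 42.4% for mmu-miR-223. Its highest value was 7.72% for mmu-miR-451 and lay between 18.1% and 33.6% for the other 4. Dye and RNA source cannot be told apart here, because no array was swapped, so the ratio against 0 was not tested.

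**Figure D1:**
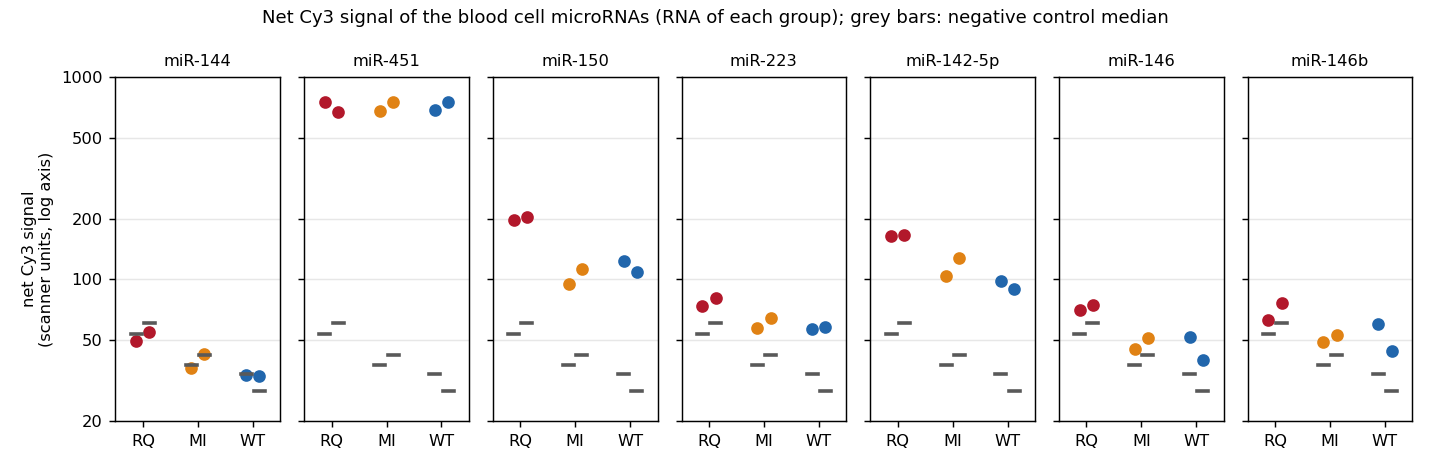
Net Cy3 signal of the 7 blood cell microRNAs in scanner units on a log axis, 1 point per array, with the RQ, MI and WT arrays from left to right in each panel. Grey bars give the median of the negative control spots on the same array: miR-144 lay at that level on each array, between 0.902 and 1.18 times it, and miR-451 at 11.1 to 26.7 times it.

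**Figure D2:**
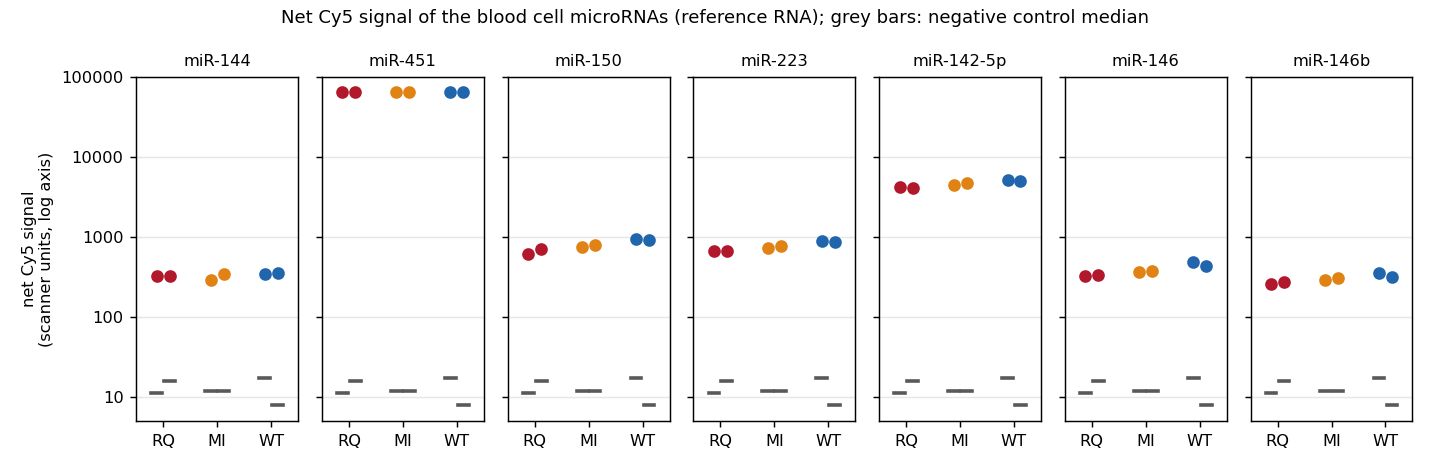
Net Cy5 signal of the same probes in scanner units on a log axis, 1 point per array, with grey bars for the negative control median. All 7 stood far above the controls, and miR-451 was at the scanner's limit near 65228 on each array. For the other 6 both RQ arrays were below both WT arrays, as they were for 54.4% of the 294 tested probes.

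Among the erythroid members, mmu-miR-144 gave no Cy3 signal that could be told from the controls. Its net Cy3 signal was 49.5 and 55.0 on the RQ arrays, 36.4 and 42.6 on the MI arrays, and 33.8 and 33.3 on the WT arrays. The order followed that of the negative control spots, and 0 of its 24 spots passed the background limit. In Cy5 it had 327 and 325 on the RQ arrays, 289 and 346 on the MI arrays, and 342 and 355 on the WT arrays. The log2 ratio therefore rested on a Cy3 signal at the control level. The ratio averaged -2.91 ± 0.09 in RQ, -2.63 ± 0.17 in MI and -2.89 ± 0.13 in WT (SD, n = 2 each). The difference was -0.02 for RQ minus WT, with a 95% interval between -0.35 and 0.32, and 0.26 for MI minus WT, with an interval between -0.08 and 0.60 (limma, adjusted p = 0.944 and 0.221).

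mmu-miR-451, from the same transcript, was the brightest member in both channels. Its net Cy3 signal was 751 and 676 on the RQ arrays, 680 and 754 on the MI arrays, and 687 and 752 on the WT arrays. In net signal the 3 groups overlapped fully. In multiples of the negative control median it had 13.907 and 11.082 on the RQ arrays and 17.986 and 17.735 on the MI arrays. On the WT arrays it had 20.019 and 26.676. These multiples did not overlap and were lowest in RQ, where the control median itself was highest. Whether they reflect the microRNA or the control level was not tested. In Cy5 all 24 spots were saturated, with means between 65228 and 65230 on the 6 arrays, and it was the only probe with every spot saturated in Cy5. Its true Cy5 level is therefore known only as a lower limit, and its ratio as an upper one.

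The log2 ratio of mmu-miR-451 averaged -8.12 ± 0.03 in RQ, -7.49 ± 0.27 in MI and -7.04 ± 0.12 in WT (SD, n = 2 each). It was the lowest ratio of the 294 tested probes on every array. RQ minus WT was -1.09 ± 0.16 (SE) and passed the test (limma, adjusted p = 0.00839), which is not read as a change in the microRNA. The median tested probe stood at 1.14 times in Cy3 after background correction with an offset of 50, before the loess step. At that stage the Cy3 signal of mmu-miR-451 in RQ stood at 0.969 times that in WT. The saturated Cy5 signal stood at 1.00 times, so the difference entered with the normalization. With Cy3 alone, scaled to the 75th percentile of each array, RQ minus WT was -0.43, MI minus WT 0.09 and RQ minus MI -0.53, and none of these was called (limma, adjusted p = 0.115, 0.841 and 0.0888).

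mmu-miR-150, the lymphocyte microRNA, was the only member with an unsaturated reference that was called in the loess fit, for RQ minus WT. That call depended on the scaling, as given below. Its net Cy3 signal was 196 and 204.5 on the RQ arrays, 95 and 112 on the MI arrays, and 123 and 109 on the WT arrays. Both RQ arrays stood above the other 4. That was common: net Cy3 was higher on both RQ arrays than on both WT arrays for 63.3% of tested probes, and than on both MI arrays for 72.1%. In RNA from whole embryoid bodies, more cells of a type and more RNA per cell cannot be told apart. In Cy5 it had 619 and 700 on the RQ arrays, 752 and 795 on the MI arrays, and 956 and 912 on the WT arrays. There the RQ arrays were the lowest and the WT arrays the highest, with no overlap between groups. Both RQ arrays were below both MI arrays in Cy5 for 50.3% of tested probes, and both MI arrays below both WT arrays for 41.8%.

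The log2 ratio of mmu-miR-150 was -2.21 and -2.27 on the RQ arrays, -2.66 and -2.86 on the MI arrays, and -3.11 and -2.89 on the WT arrays. It was higher in RQ than in WT by 0.76 ± 0.13 (SE) on the log2 scale, a 1.69-fold difference with a 95% interval between 1.35 and 2.12 (limma, adjusted p = 0.0121). Ordered by size, the difference was number 54 of the 294 tested. RQ was 0.52 ± 0.13 above MI (limma, adjusted p = 0.0670), with an interval between 0.20 and 0.85. MI was 0.23 ± 0.13 above WT (limma, adjusted p = 0.248), with an interval between -0.09 and 0.56. Neither passed the adjusted threshold. For RQ and MI the arrays stood apart and the interval leaves out 0. For MI and WT the nearest arrays, at -2.86 and -2.89, differed by little and the interval holds 0.

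Both channels contributed to the higher ratio of mmu-miR-150 in RQ. Before normalization between dyes, its Cy3 signal in RQ was 1.44 times that in WT, where the median tested probe was at 1.14 times. Its Cy5 signal was 0.721 times that in WT, where the median was 0.904 times, although the labels name the same reference for both. These folds are of background-corrected signals with an offset of 50, not of the net signals given above. Against the negative control median of its own array, the Cy3 signal was 3.64 and 3.35 times on the RQ arrays, 2.51 and 2.65 times on the MI arrays, and 3.59 and 3.86 times on the WT arrays. On that scale both RQ arrays lay above the MI arrays and below or within the range of the WT arrays.

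The call for mmu-miR-150 depended on the scaling and on the RQ arrays. With Cy3 alone RQ minus WT was 0.14 at the 75th percentile (limma, adjusted p = 0.603) and 0.27 after quantile normalization (0.0833). It was 0.52 with the scanner's processed signals (0.0694) and 0.52 with the deposited value table (0.0703). With loess fitted on bright probes it was 0.54 (0.0539). Leaving out RQ replicate 1 gave 0.72 (adjusted p = 0.0919) and leaving out RQ replicate 2 gave 0.79 (adjusted p = 0.0532). The median over all tested probes moved with these scalings, to -0.20 with Cy3 alone at the 75th percentile and -0.26 with the processed signals, against 0.03 in the loess fit. Relative to that median mmu-miR-150 stood at 0.72 with loess, 0.34 with Cy3 alone at the 75th percentile and 0.78 with the processed signals, so it was higher in RQ than the median probe under each.

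**Figure D3:**
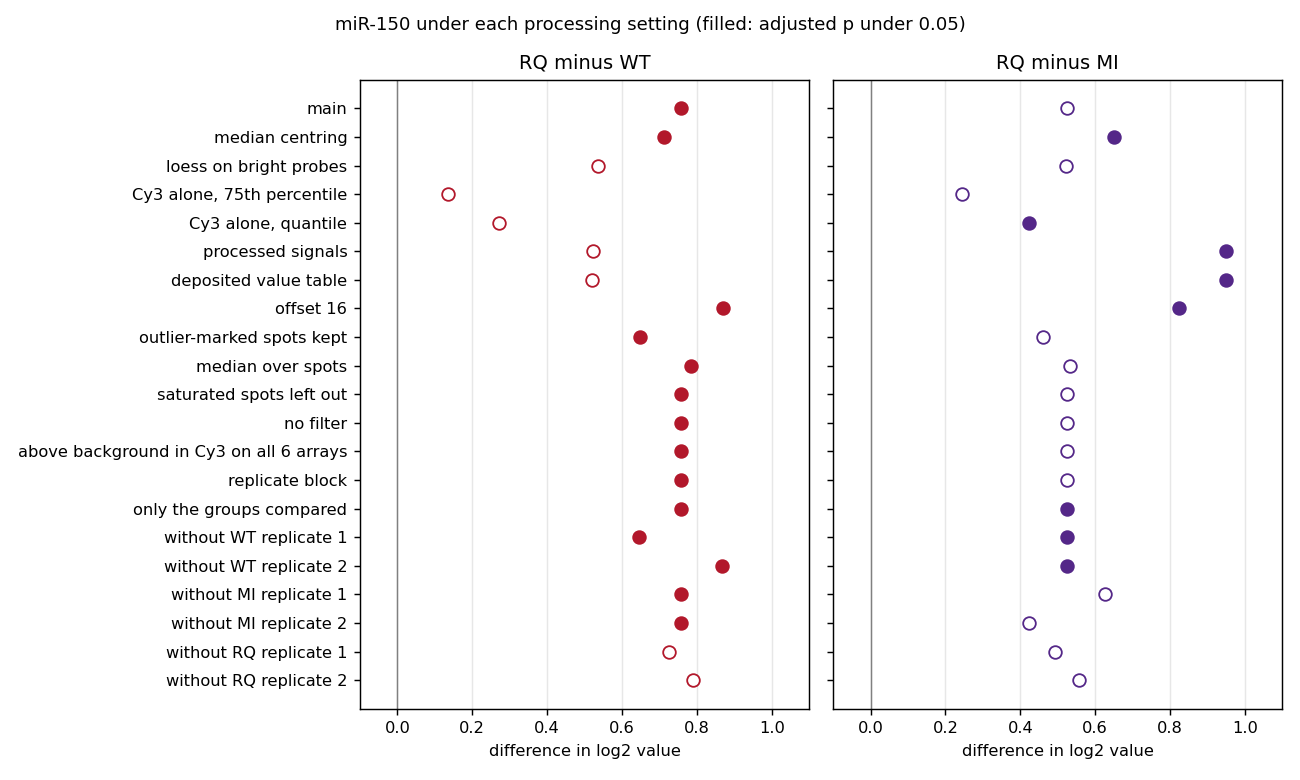
Difference of mmu-miR-150 in log2 value between RQ and WT (left) and between RQ and MI (right) under each processing setting, with filled points where the adjusted p was under 0.05. Every point lies above 0: RQ minus WT ranged between 0.14 and 0.87, and RQ minus MI between 0.25 and 0.95.

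mmu-miR-223, the myeloid microRNA, was near the control level in Cy3 and did not differ in the test. Its net Cy3 signal was 74.2 and 81.0 on the RQ arrays, 57.5 and 64.5 on the MI arrays, and 56.8 and 58.5 on the WT arrays. The RQ arrays were the highest, as they were for the negative controls. Set against the negative control median the signal was 1.38 and 1.33 times on the RQ arrays, 1.52 on both MI arrays, and 1.66 and 2.07 times on the WT arrays. In Cy5 it had 664 and 659 on the RQ arrays, 737 and 773 on the MI arrays, and 880 and 874 on the WT arrays.

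The log2 ratio of mmu-miR-223 averaged -3.61 ± 0.01 in RQ, -3.28 ± 0.15 in MI and -3.71 ± 0.18 in WT (SD, n = 2 each). The MI arrays were the highest, 0.43 ± 0.14 (SE) above WT, with a 95% interval between 0.09 and 0.77 (limma, adjusted p = 0.0843). Without WT replicate 2 that difference was 0.56 and was called (adjusted p = 0.0495). RQ minus WT was 0.10, with an interval between -0.24 and 0.44 (limma, adjusted p = 0.623). Over 0.5 of its spots passed the background in Cy3 on 0 of the 2 RQ arrays and on 1 of the 2 arrays of either other group, so the Cy3 level in RQ is only an upper limit. The direction in Cy3 was not settled. After background correction with an offset of 50, before normalization, the RQ signal was 1.038 times that in WT and 1.097 times that in MI. With Cy3 alone after quantile normalization RQ minus WT was -0.16 and RQ minus MI -0.10, neither of them called.

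mmu-miR-142-5p, found across blood lineages, had a Cy3 signal that followed the control spots. It was 164 and 167 on the RQ arrays, 104 and 128 on the MI arrays, and 98.3 and 90.2 on the WT arrays, with no overlap between groups. Both RQ arrays were above both MI arrays in Cy3 for 72.1% of tested probes, and both MI arrays above both WT arrays for 36.4%. In multiples of the negative control median mmu-miR-142-5p had 3.04 and 2.73 on the RQ arrays and 2.74 and 3.01 on the MI arrays. On the WT arrays it had 2.87 and 3.20, and these multiples do overlap. In Cy5 it had 4191 and 4043 on the RQ arrays, 4429 and 4742 on the MI arrays, and 5212 and 5035 on the WT arrays.

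Its log2 ratio averaged -4.50 ± 0.27 in RQ, -4.27 ± 0.17 in MI and -4.71 ± 0.28 in WT (SD, n = 2 each). It was between the second and the seventh lowest of the 294 tested probes on the arrays. RQ minus WT was 0.21, with a 95% interval between -0.28 and 0.70, and MI minus WT was 0.44, with an interval between -0.05 and 0.93 (limma, adjusted p = 0.490 and 0.174). With median centring in place of loess RQ minus WT was 0.52 and was called (adjusted p = 0.0103), and with outlier-marked spots kept it was -0.08 (adjusted p = 0.814). One spot of this probe was brighter in Cy3 than the other 3 on each array and was marked by the scanner as an outlier on 5 of 6. The exception was MI replicate 2, where it stayed in the average.

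**Figure D4:**
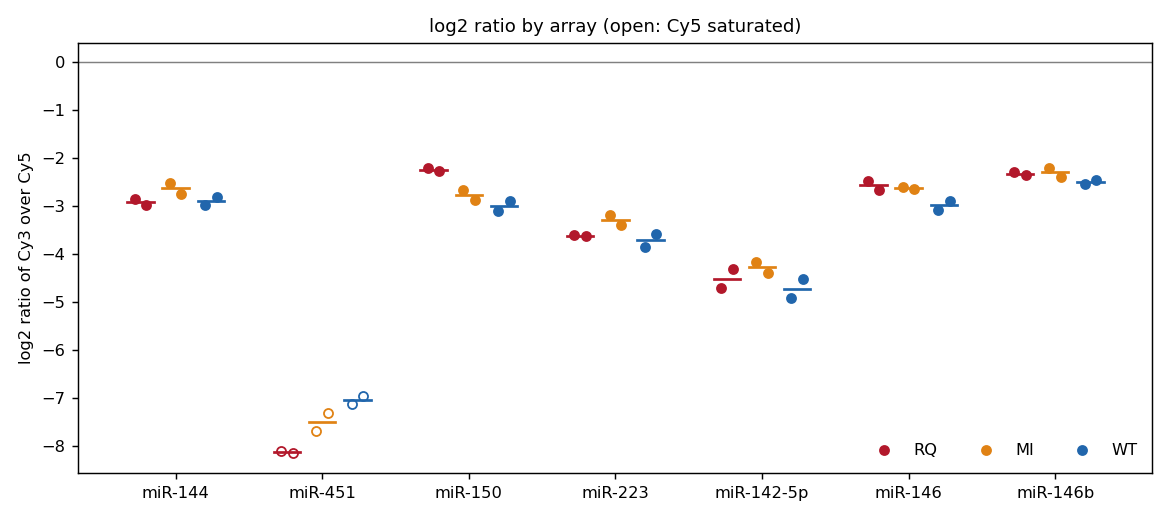
log2 ratio of Cy3 over Cy5 for the 7 blood cell microRNAs, 1 point per array and a bar for the group mean, with RQ, MI and WT from left to right. Each value lies below -2, miR-150 is the member whose RQ arrays stand apart above both other groups, and the open points of miR-451 rest on a saturated Cy5 signal.

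Neither member of the NF-kB linked pair was called in any comparison. mmu-miR-146 had a net Cy3 signal of 71.0 and 74.8 on the RQ arrays, 45.2 and 51.5 on the MI arrays, and 51.8 and 40.0 on the WT arrays. mmu-miR-146b had 63.0 and 76.3 on the RQ arrays, 49.0 and 53.3 on the MI arrays, and 60.3 and 44.1 on the WT arrays. These are 1.197 to 1.51 times the negative control median for mmu-miR-146 and 1.17 to 1.76 times for mmu-miR-146b, so both lay close to the controls in every group.

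In Cy5 mmu-miR-146 had 326 and 334 on the RQ arrays, 366 and 374 on the MI arrays, and 487 and 432 on the WT arrays. mmu-miR-146b had 257 and 274 on the RQ arrays, 286 and 309 on the MI arrays, and 350 and 320 on the WT arrays. Both members were thus dimmest in Cy5 on the RQ arrays and brightest on the WT arrays. Such an order was not particular to the pair: RQ lay below MI without overlap in Cy5 for 50.3% of tested probes, and MI below WT for 41.8%. The log2 ratio of mmu-miR-146 averaged -2.56 ± 0.13 in RQ, -2.61 ± 0.04 in MI and -2.98 ± 0.14 in WT (SD, n = 2 each). Its difference was 0.42 ± 0.13 for RQ minus WT and 0.36 ± 0.13 for MI minus WT (SE, limma, adjusted p = 0.0689 and 0.1004), with 95% intervals between 0.10 and 0.73 and between 0.05 and 0.67. With Cy3 alone at the 75th percentile the signs turned, to -0.24 and -0.02.

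The log2 ratio of mmu-miR-146b averaged -2.32 ± 0.05 in RQ, -2.29 ± 0.12 in MI and -2.49 ± 0.06 in WT (SD, n = 2 each). RQ minus WT was 0.17, with a 95% interval between -0.11 and 0.45, and MI minus WT was 0.20, with an interval between -0.09 and 0.48 (limma, adjusted p = 0.336 and 0.255). In Cy3 it passed the background on 0 of the 2 RQ arrays and on both WT arrays. The direction in Cy3 was not settled for it either. Its net signal was higher on both RQ arrays than on both WT arrays, as it was for 63.3% of tested probes. After background correction with an offset of 50, before normalization, the RQ signal was 0.998 times that in WT. With Cy3 alone after quantile normalization RQ minus WT was -0.20 and was not called. One of its 4 spots was marked as an outlier on all 6 arrays and was left out.

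Set side by side, RQ minus WT held 2 of the 7 blood cell microRNAs, mmu-miR-150 higher and the saturated mmu-miR-451 lower, where 21.4% of the 294 tested probes were called (63 probes, 22 higher and 41 lower). At an unadjusted p under 0.05 it held 3, with mmu-miR-146 higher as well, where 37.4% passed. MI minus WT held 0 of 7 in limma, where 15.6% of tested probes were called (46 probes), and at an unadjusted p under 0.05 it held 3, mmu-miR-146 and mmu-miR-223 higher and mmu-miR-451 lower, where 36.7% of tested probes passed. RQ minus MI held 0 of 7, where 10.9% were called (32 probes), and at an unadjusted p under 0.05 it held 2, mmu-miR-150 higher and mmu-miR-451 lower, where 26.5% passed. The other 5 differences of RQ minus MI lay between -0.33 for mmu-miR-223, with a 95% interval between -0.67 and 0.01, and 0.06 for mmu-miR-146, with an interval between -0.26 and 0.37 (limma, adjusted p = 0.203 and 0.804). With Cy3 alone at the 75th percentile 0 of 7 were called in each comparison, where 25.5%, 15.6% and 10.9% of probes were called for RQ minus WT, MI minus WT and RQ minus MI. At an unadjusted p under 0.05 the same scaling held mmu-miR-451 for RQ minus WT, 0 members for MI minus WT, and mmu-miR-144 and mmu-miR-451 for RQ minus MI, where 37.8%, 27.9% and 28.6% of tested probes passed in the same order of comparisons. With 7 members these shares give no ground to set the list apart from other probes.

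**Figure D5:**
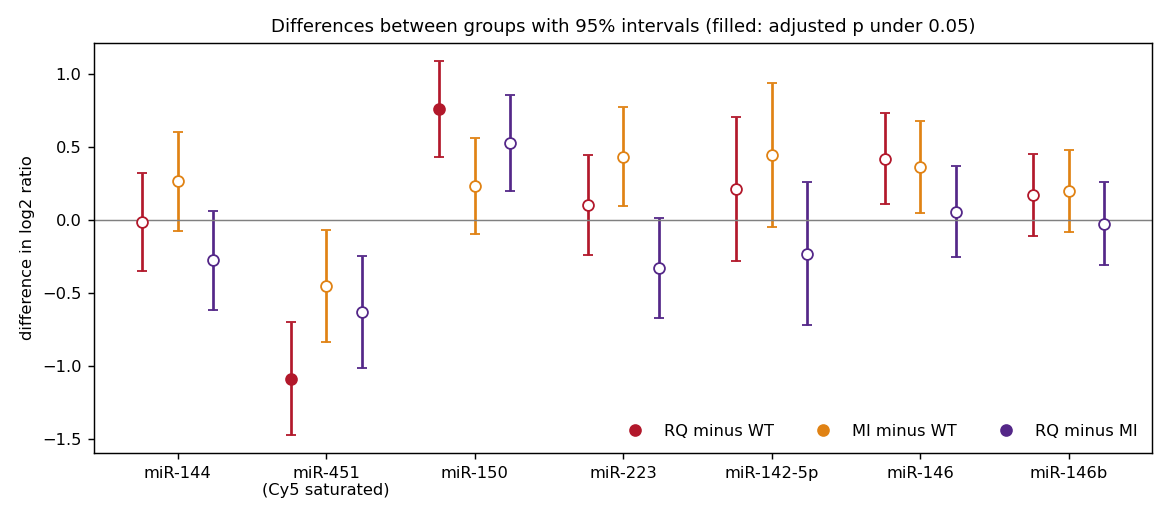
Difference in log2 ratio for RQ minus WT, MI minus WT and RQ minus MI, with 95% intervals from limma and filled points where the adjusted p was under 0.05. Only miR-150 and the saturated miR-451 have a filled point, both for RQ minus WT, at 0.76 and -1.09.

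The median difference over the 7 members was 0.17 for RQ minus WT, against 0.03 over all tested probes, 0.26 for MI minus WT, against 0.11, and -0.23 for RQ minus MI, against -0.10. The 2 comparisons with WT share the WT arrays, so their values are given side by side and no likeness between them is drawn. In both channels the net signals of the unsaturated members moved from WT to RQ in the same direction as those of most tested probes. Net Cy3 was higher on both RQ arrays than on both WT arrays for 6 of 7 members and for 63.3% of tested probes. Net Cy5 was lower on both RQ arrays than on both WT arrays for 6 of 7 members and for 54.4% of tested probes. The exception was mmu-miR-451 in both counts. After background correction with an offset of 50 the amounts differed. Among the unsaturated members, Cy5 in RQ was 0.721 times WT for mmu-miR-150 to 0.945 times for mmu-miR-144, against 0.904 for the median probe. In Cy3 the same members lay between 0.998 and 1.44 times, against 1.14.

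Of 27 other microRNAs with a known role in blood cells, 25 were on the arrays and all 25 were tested. The list was chosen with earlier results of these data known. In RQ minus WT 3 were called higher and 7 lower, where 21.4% of the 294 tested probes were called. The median difference was 0.04 against 0.03 over all tested probes. The 3 were miR-155, made in activated lymphocytes, at 1.35, and miR-181a and miR-181b, which act in lymphocyte development, at 0.62 and 0.60. The 7 were miR-125a and miR-125b, known from blood stem cells, at -1.31 and -1.39, miR-16, which restrains Bcl2, at -1.17, miR-17-5p at -0.65, miR-21 at -1.35, the hypoxia-induced miR-210 at -0.92 and miR-24 at -0.62. Of these 10, miR-155 and miR-210 were also called under each of 6 other scalings, and miR-17-5p and miR-24 under none of them and with the sign turned under median centring, at 0.28 and 0.23. miR-125b was called under 5, miR-181b, miR-125a and miR-21 under 3, miR-16 under 2 and miR-181a under 1. With Cy3 alone at the 75th percentile miR-181a was at 0.03.

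In MI minus WT 3 of the 25 were called higher and 2 lower, where 15.6% of tested probes were called. The median difference was 0.15 against 0.11 over all tested probes. miR-181a, miR-181b and miR-181c were higher by 1.28, 1.06 and 1.00 and were called under all 6 other scalings, as was miR-210 at -1.11, whereas miR-17-5p at -0.46 was called under none of them. In RQ minus MI 2 were higher, miR-155 at 1.11 and the p53-induced miR-34a at 0.79. Another 3 were lower, miR-125a at -1.07, miR-181a at -0.65 and miR-181c at -0.61. Over all tested probes 10.9% were called, and the median difference was -0.24 in the list against -0.10. Of these 5, miR-155 was called under all 6 other scalings, miR-181a under 4, miR-181c under 2, and miR-125a and miR-34a under 1 each.

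For each member the 3 other tested probes with the most similar pattern over the 6 arrays were named, as a description. The arrays share the reference RNA and the normalization, and with 6 points over 287 probes high values are common. The ratio of mmu-miR-150 was most like those of miR-708 (Pearson's r = 0.98), miR-155 (0.97) and miR-153 (0.96). mmu-miR-142-5p was most like miR-133a* (0.97), miR-292-5p (0.96) and miR-685 (0.94). mmu-miR-144 was most like miR-30a-5p (0.96), miR-30e (0.93) and miR-222 (0.93), and mmu-miR-223 was most like miR-30a-5p (0.99), miR-715 (0.98) and miR-184 (0.97), so miR-30a-5p led for both of these members. mmu-miR-146 was most like miR-486 (0.99), miR-702 (0.98) and miR-300 (0.98), and mmu-miR-146b was most like miR-699 (0.997), miR-98 (0.98) and miR-721 (0.95), so the pair shared none of its nearest probes. For mmu-miR-451, taken over Cy3 alone, they were miR-193 (0.99), miR-375 (0.98) and miR-204 (0.98).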

How the data were processed

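Per the file headers, Agilent Feature Extraction 9.5.1.1 made the deposited scanner files, in which each spot has a mean and a local background intensity per dye on a linear scale. They also hold processed intensity values and a log10 ratio, per the file headers. How these were normalised between dyes was not given in the sources used. The deposited value table equalled minus that log10 ratio, so its direction (Cy3 over Cy5) and scale are known, and the median of each column was 0.

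Normexp background correction (offset 50) was followed by a loess normalization of each array, fitted on spots of mouse microRNA probes (limma 3.58.1, R 4.3.3). Outlier-marked spots, 60 to 99 per array, were left out, spots of a probe were averaged, and log2 ratios of Cy3 over Cy5 were computed from the deposited intensities. Testing required that on at least 2 arrays a share over 0.5 of the probe's spots passed the scanner's background flag in Cy3 or in Cy5. lmFit and eBayes were run on all 6 arrays and p-values adjusted over 294 probes by Benjamini-Hochberg, with calls at an adjusted p under 0.05. Net signals are mean minus background intensity, averaged over spots not marked as outliers. The number of arrays limits the precision. The labels call the replicates biological but do not state whether they came from separate cultures, so the spread behind each p-value is that of these samples and may be technical. The fit was also run on simulated data with independent noise. Those data held no scaling or slide row effects, so they cannot show how such effects touch the calls.

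The members and the list of other blood microRNAs were chosen with earlier results of these data known. Named were all members, the 3 probes most like each, and the listed blood microRNAs that were called. Same-numbered replicates are not stated to be paired. The 20 alternatives per comparison are summed up in the closing section, though not every setting is named there.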

Additional observations from a re-analysis of the deposited data

Results flagged for a closer look

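Both results below come from spots that the scanner marked as outliers, so that the comparisons leave them out, except the mmu-miR-142-5p spot on MI replicate 2, which was not marked and was kept. Of the 4 spots of mmu-miR-142-5p, the one at row 137, column 39 of the array was brighter in Cy3 than the mean of the other 3 on all 6 arrays, by 1.27 to 4.87 times. Its net Cy3 signal was 364 and 675 on the RQ arrays, 132 and 167 on the MI arrays, and 479 and 234 on the WT arrays, where the other spots lay between 84.0 and 178. In Cy5 the same spot was at 1.13 to 1.46 times the mean of the other 3. Of the 4 spots of mmu-miR-146b, the one at row 91, column 79 was at 2.80 to 12.96 times the mean of the others in Cy3. Its net Cy3 signal was 301 and 302 on the RQ arrays, 137 and 247 on the MI arrays, and 173 and 572 on the WT arrays, where the other spots lay between 38.4 and 92.0. In Cy5 it was at 0.943 to 1.51 times. In all, 16 of 334 mouse probes had 1 spot over 1.2 times the mean of the other 3 in Cy3 on each array. The cause was not tested.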

How the results depend on the processing

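Each of the 7 microRNAs was recomputed under 20 alternatives per comparison, which gave 405 values: 328 kept direction and side of the threshold, 52 turned sign, 14 became called and 11 lost the call. The alternatives are not independent, so the 328 are not read as a measure of stability. Leaving out an array of the group not compared gave the same fit as using only the groups compared. A changed filter, the replicate block and, for unsaturated members, leaving out saturated spots did not alter the differences themselves. The processed signals and the value table gave nearly the same values. The counts of members called were 2 for RQ minus WT and 0 for both other comparisons. For RQ minus WT the count was 1 with loess on bright probes and with saturated spots left out, which removes mmu-miR-451, and 0 with either Cy3-alone scaling. Leaving out 1 array gave 0 to 2 for RQ minus WT, with the lowest value of 0 without RQ replicate 1 and 1 without RQ replicate 2, and 0 to 1 for MI minus WT and for RQ minus MI. For RQ minus MI the count was 1 with median centring, with Cy3 quantile scaling and with only the groups compared, and 2 with the processed signals, the value table and offset 16. With the replicate block it was 2 for RQ minus WT, 0 for MI minus WT and 1 for RQ minus MI (mmu-miR-451), but the replicate numbers share no more than a number: the correlation of replicate differences was 0.12 for RQ and WT, 0.18 for MI and WT and 0.04 for RQ and MI. Over all tested probes the calls for RQ minus WT numbered 63, between 43 and 81 under other settings and between 5 and 60 with 1 array left out. For MI minus WT they numbered 46, between 27 and 65 and between 6 and 63. For RQ minus MI they numbered 32, between 10 and 48 and between 0 and 48. Of the RQ minus WT calls 34.9% were higher, and 67.2% with median centring. For MI minus WT 58.7% were higher, and 28.1% with the processed signals. For RQ minus MI 28.1% were higher, and 59.4% with median centring.

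The sign turned for these values, and the cause was not tested. With Cy3 alone at the 75th percentile the RQ minus WT difference was -0.24 for mmu-miR-146, -0.39 for mmu-miR-146b and -0.33 for mmu-miR-223, and after quantile normalization -0.04, -0.20 and -0.16. MI minus WT at the 75th percentile was -0.02 for mmu-miR-146, -0.07 for mmu-miR-146b, -0.11 for mmu-miR-150 and 0.09 for mmu-miR-451. With quantiles these were -0.12, -0.18, -0.15 and 0.08, and mmu-miR-144 and mmu-miR-223 were -0.05 and -0.06. RQ minus MI was -0.22 for mmu-miR-146 at the 75th percentile and 0.03 for mmu-miR-142-5p with quantiles. With the processed signals and the value table RQ minus WT was 0.63 and 0.64 for mmu-miR-144 (both called, adjusted p = 0.0473 and 0.0468), -0.25 with each for mmu-miR-146b and -0.22 with each for mmu-miR-223. MI minus WT was -0.61 with each for mmu-miR-146b, -0.43 with each for mmu-miR-150, -0.01 and -0.02 for mmu-miR-223, and -0.0042 for mmu-miR-146 with the value table. RQ minus MI was 0.11 with each for mmu-miR-142-5p, 0.26 and 0.27 for mmu-miR-144 and 0.37 with each for mmu-miR-146b. With median centring mmu-miR-146b was -0.01 for RQ minus WT and for MI minus WT, mmu-miR-451 was 0.01 for MI minus WT and mmu-miR-142-5p 0.21 for RQ minus MI. With loess on bright probes mmu-miR-223 was -0.09 for RQ minus WT. With outlier-marked spots kept mmu-miR-142-5p was -0.08, -0.09 and 0.0033 for RQ minus WT, MI minus WT and RQ minus MI, and mmu-miR-146b was -0.02 for RQ minus WT. With 1 array left out mmu-miR-144 lay between -0.10 and 0.07 and mmu-miR-223 between -0.03 and 0.23 for RQ minus WT, and mmu-miR-146 between -0.04 and 0.15 and mmu-miR-146b between -0.11 and 0.06 for RQ minus MI. mmu-miR-451 has no value with saturated spots left out, and with only probes above background in Cy3 on all 6 arrays 3 members were tested.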
